A study of Mus musculus with 9 samples.

Results

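The genes described here are 33 genes of cholesterol metabolism, chosen by name: 18 enzymes that build cholesterol, 5 genes that control the pathway through the SREBP transcription factors, 6 genes of oxysterol sensing and efflux, and 4 genes that move or store cholesterol inside cells. All 33 were among the 40879 gene symbols of the count files, and 32 had enough counts to be tested. Expression was measured by 3' tag RNA sequencing in 9 libraries of type 2 conventional dendritic cells (cDC2s), antigen-presenting cells sorted from mouse bone marrow cultured for 9 days with human Flt3L at 100 ng/ml. The libraries formed 3 groups of 3. The WT group was labelled wild type, with no treatment named in its titles. The IFNa group was labelled wild type with interferon alpha (IFNa), which the protocol places on day 5. The A20 KO group, titled A20iKO, carried the genotype A20fl/fl x CD11ccre, that is, a floxed gene for the ubiquitin-editing enzyme A20 (Tnfaip3) with a Cre recombinase driven by CD11c, a gene active in dendritic cells and in other myeloid cells. The protocol field names IFNa for every library, so the absence of IFNa from the A20 KO cultures rests on the titles and on treatment entries that only the IFNa libraries have. Flt3L was shared by all groups. The design text gives 3 mice per group, but the sources used here give neither the age of the mice nor whether a library held cells of 1 mouse. The p-values below therefore measure only the spread between these libraries, which may be technical.

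Cells make cholesterol from acetyl-CoA through mevalonate, squalene and lanosterol. When membrane sterol is low, the protein Scap carries the precursor of Srebf2 (SREBP2) from the endoplasmic reticulum to the Golgi, where it is cut, and the freed factor raises transcription of the enzyme genes. Insig1 and Insig2 hold Scap back when sterol is plentiful. Oxysterols activate the liver X receptors Nr1h3 (LXR alpha) and Nr1h2 (LXR beta), which raise the efflux transporters Abca1 and Abcg1 and the ubiquitin ligase Mylip, which removes lipoprotein receptors from the cell surface. In macrophages type I interferon is known to lower sterol synthesis, and Ch25h, which makes 25-hydroxycholesterol, is a known interferon-stimulated gene there. The 33 genes include no lipoprotein receptor, so uptake is represented by Mylip alone and receptors are given separately below.

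The SREBP factors bind sterol regulatory elements together with NF-Y, which binds the CCAAT box. The bases before the start site of the 3 enzyme genes that passed the test, and of Hmgcs1, the enzyme gene of highest level here, are printed because the enzyme genes share this element. They are RefSeq sequences of build GRCm38.p6, while the counts were made on GRCm39, and cover the 250 bases upstream of the annotated start on the gene's strand, with CCAAT on either strand (CCAAT or ATTGG) in capitals and, in Hmgcs1, also the sterol regulatory element TCACNCCAC. The windows are chr8:122443423-122443672, minus strand for Mvd, chr5:4104698-4104947, minus strand for Cyp51, chr8:64733579-64733828, minus strand for Msmo1 and chr13:119690101-119690350, plus strand for Hmgcs1.
Mvd: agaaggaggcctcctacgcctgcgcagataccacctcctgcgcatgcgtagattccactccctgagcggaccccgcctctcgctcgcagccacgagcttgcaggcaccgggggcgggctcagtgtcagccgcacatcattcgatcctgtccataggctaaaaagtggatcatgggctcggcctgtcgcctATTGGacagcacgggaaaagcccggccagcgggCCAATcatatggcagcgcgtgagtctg
Cyp51: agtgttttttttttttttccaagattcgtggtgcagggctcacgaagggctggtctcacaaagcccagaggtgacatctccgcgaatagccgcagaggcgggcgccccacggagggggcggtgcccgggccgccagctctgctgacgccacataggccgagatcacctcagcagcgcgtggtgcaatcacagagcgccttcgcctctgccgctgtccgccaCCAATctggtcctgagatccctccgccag
Msmo1: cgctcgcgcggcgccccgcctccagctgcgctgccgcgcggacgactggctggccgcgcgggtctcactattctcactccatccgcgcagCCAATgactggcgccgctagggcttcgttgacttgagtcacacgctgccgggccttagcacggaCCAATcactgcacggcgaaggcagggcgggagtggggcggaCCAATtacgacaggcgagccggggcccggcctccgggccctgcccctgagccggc
Hmgcs1: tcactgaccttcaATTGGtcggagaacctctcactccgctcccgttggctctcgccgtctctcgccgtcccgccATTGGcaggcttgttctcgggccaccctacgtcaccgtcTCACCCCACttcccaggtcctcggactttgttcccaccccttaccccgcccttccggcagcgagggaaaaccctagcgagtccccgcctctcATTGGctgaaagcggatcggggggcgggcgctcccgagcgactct
Mvd held 2 CCAAT boxes, which began 60 and 27 bases before the start, Cyp51 held 1 at 29 bases, and Msmo1 held 3 at 160, 96 and 55 bases. Hmgcs1 held 3 and the only match to TCACNCCAC among the members with a sequence. Sequences were found for 27 of the 33 genes, 15 of them enzymes. Of these 15 enzyme genes, 14 held a CCAAT box (93.3%), the exception being Acat2, as against 7 of 12 other members (58.3%) and 40.3% of the 10172 tested genes with a sequence. Counted over single windows, since a gene can have several starts, the shares were 77.8% for enzymes and 34.9% for tested genes. TCACNCCAC was held by 1.2% of tested genes with a sequence. A match describes the letters of these windows and is not evidence of binding. A window without TCACNCCAC is not evidence that a sterol regulatory element is absent, since only this form of the element was searched.

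Total counts ranged from 6900598 to 10552756 per library. Levels below are in CPM, each library's counts scaled to a common total after TMM scaling, and are not divided by transcript length because each read marks a transcript's 3' end. All 12 cDC2 markers were read in all 9 libraries. Their summed level was 8700 to 11345 CPM in WT, 6427 to 7366 in the IFNa libraries and 4623 to 5212 in A20 KO, while that of 20 monocyte and macrophage markers was 1785 to 2234, 2868 to 3387 and 4126 to 4369 CPM. Of the 12 cDC2 markers, none rose and 3 fell with IFNa, and 2 rose and 7 fell in A20 KO against WT (edgeR adjusted p under 0.05). Among all genes tested, 2.4% rose and 0.702% fell with IFNa, and 5.77% rose and 4.91% fell in A20 KO. Stromal markers such as Col1a1 stood apart in 1 library of each group, namely WT replicate 2 (summed level 4751 CPM), IFNa replicate 3 (4877 CPM) and A20 KO replicate 1 (4524 CPM). The remaining 6 libraries held 490 to 2419 CPM. A20 KO replicate 1 also held 214 CPM of lymphoid and erythroid markers, against 31.9 to 58.3 CPM elsewhere. The level of Tnfaip3 in the WT libraries was 22.8, 6.82 and 4.27 CPM, that in the IFNa libraries 7.95, 9.73 and 11 CPM, and that in the A20 KO libraries 37.5, 54 and 39.7 CPM, above every WT library (log2 fold change 1.95, SE 0.52, adjusted p = 0.028). A 3' tag outside the deleted part checks nothing about the deletion, and which exons were deleted was not stated. The call on Tnfaip3 was lost without WT replicate 2 or 3, and without A20 KO replicate 2 or 3 (adjusted p = 0.0718, 0.0776, 0.113 and 0.0645). Irf7, an interferon-induced factor, was at 6.47 to 11.5 CPM in WT, 423 to 536 in the IFNa libraries and 85 to 132 in A20 KO.

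With IFNa, 3 of the 18 cholesterol synthesis enzymes fell and none rose, and the estimate lay below WT for 17 of the 18. Mvd, Msmo1 and Cyp51 fell. Among all 13251 genes tested, 0.702% fell and 2.4% rose by the same rule (edgeR quasi-likelihood test, Benjamini-Hochberg adjusted p under 0.05 over all genes). The median log2 fold change was -0.82 over the enzymes and -0.02 over all genes. In 9 of the 18 enzymes every IFNa library lay below every WT library, which held for 8.45% of all genes tested, and in 1, Ebp, every IFNa library lay above, which held for 9.77%.

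Among the enzymes up to squalene, Mvd, which decarboxylates mevalonate diphosphate to the first isoprenoid unit, was at 52, 39.6 and 37.1 CPM in WT, at 15.7, 20 and 16.6 CPM with IFNa, and at 37.3, 46.1 and 54.8 CPM in A20 KO. The IFNa libraries lay apart below both other groups, and the WT and A20 KO libraries overlapped. Mvd fell with IFNa by 1.3 on the log2 scale (SE 0.261, edgeR adjusted p = 0.014). Hmgcs1, which makes HMG-CoA, was at 168, 220 and 181 CPM in WT, 84.2, 114 and 165 with IFNa, and 212, 123 and 110 in A20 KO. All IFNa libraries lay below the WT range, and only replicate 3 lay close to it (log2 fold change -0.65, SE 0.275, edgeR adjusted p = 0.33). In each group the highest Hmgcs1 level was in the library of highest stromal markers. Hmgcs1 passed in 2 of 20 alternative settings, with the log2 summed stromal level as a covariate (edgeR adjusted p = 0.00429) and with no filter on low counts (0.0486). The largest adjusted p was 0.66, without IFNa replicate 1.

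Fdft1, squalene synthase, was at 24.8, 12.4 and 20 CPM in WT, 6.54, 6.26 and 6.98 with IFNa, and 16.8, 10.9 and 11.3 in A20 KO. The IFNa libraries were close together and below all others, but the difference from WT did not pass (log2 fold change -1.53, SE 0.413, adjusted p = 0.0722). It passed without WT replicate 2 and with DESeq2, library size scaling or the stromal covariate. Pmvk, phosphomevalonate kinase, was at 31 to 31.6 CPM in WT, 22 to 30.9 in the IFNa libraries and 27.3 to 45 in A20 KO. Acat2, which condenses acetyl-CoA, was at 12 to 21.4, 4.64 to 13.4 and 23.5 to 28.8 CPM in the same order, so that A20 KO lay above both other groups. Mvk, mevalonate kinase, and Idi1, the isopentenyl diphosphate isomerase, were low, at most 10.6 and 4.27 CPM in any library, with wide overlap.

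Fdps, which makes farnesyl diphosphate, did not share this pattern. Its level was 44.6, 19.4 and 24.8 CPM in WT, 25.1, 22.5 and 34 with IFNa, and 47, 63 and 77.2 in A20 KO. WT and IFNa libraries overlapped and A20 KO lay above both. The difference lay just above the threshold against WT (log2 fold change 1.07, SE 0.328, adjusted p = 0.0557) and against IFNa (1.2, SE 0.33, adjusted p = 0.0535). It passed in 10 of 20 alternative settings against WT, among them without WT replicate 1 (log2 fold change 1.5, adjusted p = 0.00872), and in 13 of 20 against IFNa.

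Of the enzymes from squalene to cholesterol, Msmo1, the sterol methyl oxidase, was at 76.6, 72.8 and 65.9 CPM in WT, 34.5, 41.5 and 42.6 with IFNa, and 67.9, 77.7 and 72.5 in A20 KO. IFNa stood below both other groups without overlap, and Msmo1 fell by 0.86 (SE 0.187, edgeR adjusted p = 0.0222). Cyp51, the lanosterol demethylase, was at 105, 77.7 and 94 CPM in WT, 55.3, 45.8 and 54.4 with IFNa, and 78.1, 99.6 and 69.2 in A20 KO. It showed the same separation and fell by 0.83 with IFNa (SE 0.203, edgeR adjusted p = 0.0449). Sqle, squalene epoxidase, was at 35.6, 34.2 and 24.4 CPM in WT, 15.5, 17.3 and 14.1 with IFNa, and 21.3, 35.2 and 35.1 in A20 KO, with all IFNa libraries lowest (log2 fold change against WT -1.01, SE 0.303, adjusted p = 0.118).

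Lss, which closes the sterol rings, and Dhcr7, which carries out a final reduction, also had every IFNa library below every WT library. Lss was at 7.72 to 19.7 CPM in WT, 3.92 to 5.1 in the IFNa libraries and 5.78 to 8.22 in A20 KO. Dhcr7 was at 13.1 to 17.4, 5.01 to 10.8 and 8.02 to 13.6 CPM in that order. Ebp, the sterol isomerase, ran the other way, with 65.9 to 74.4 CPM in WT, 77.4 to 100 in the IFNa libraries and 81.2 to 107 in A20 KO, but neither difference passed (adjusted p = 0.521 and 0.253). Sc5d, Nsdhl, Hsd17b7 and Tm7sf2, which act on later sterol intermediates, overlapped between WT and IFNa, with log2 fold changes of -0.18, -0.63, -0.36 and -0.20.

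**Figure D1:**
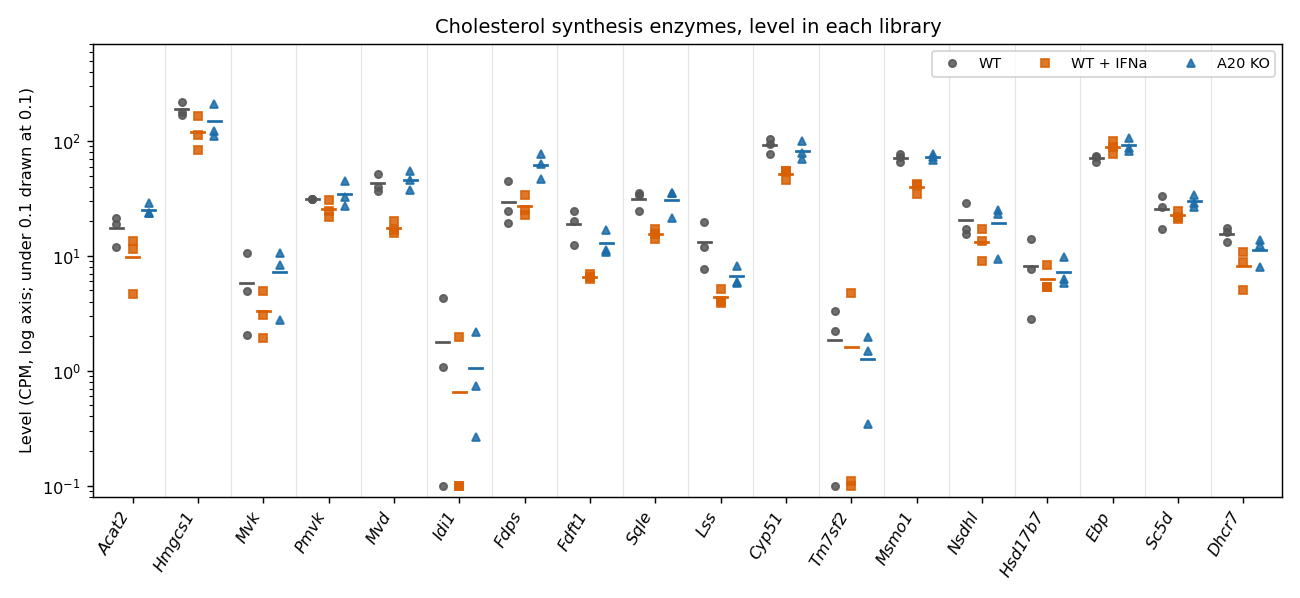
Level of the 18 synthesis enzymes in CPM (log axis, values under 0.1 drawn at 0.1), 1 point per library and a bar at each group's mean of 3. The orange IFNa points of Mvd, Fdft1, Sqle, Cyp51 and Msmo1 lie below all WT and A20 KO points, while those of Fdps overlap with WT.

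The calls on the enzymes rested on few libraries. Mvd lost its call without WT replicate 1 or IFNa replicate 1 or 3 (adjusted p = 0.0520, 0.0579 and 0.0538). Msmo1 lost it without WT replicate 1 or 2, IFNa replicate 1, 2 or 3 or A20 KO replicate 2, and Cyp51 lost it without any single library other than WT replicate 2, with adjusted p of at most 0.0964 and 0.192. Over all 20 settings the log2 fold change ran from -1.41 to -1.14 for Mvd, -0.98 to -0.79 for Msmo1 and -0.97 to -0.73 for Cyp51.

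A20 KO against WT gave no call among the 32 members tested, where 5.77% of all genes tested rose and 4.91% fell. At an unadjusted p under 0.05, 6 of 32 members passed, as did 2956 of all 13251 genes. DESeq2 and limma voom each called 2 members. Over the enzymes the median log2 fold change was -0.06, with 8 estimates above 0 and 10 below, against -0.01 over all genes. In 3 enzymes, Acat2, Fdps and Ebp, every A20 KO library lay above every WT library, as in 15.4% of all genes tested, and in none did every one lie below, as in 12.6%. For Mvd and Msmo1 the log2 fold change against WT was 0.10 (SE 0.254, adjusted p = 0.885) and 0.02 (SE 0.185, adjusted p = 0.975).

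A20 KO against IFNa tests directly whether those groups differ. Mvd and Msmo1 were higher in A20 KO, by 1.4 (SE 0.261, edgeR adjusted p = 0.00642) and 0.88 (SE 0.187, edgeR adjusted p = 0.0138), and no member passed as lower. Npc2 came near, at -0.44 with no overlap (SE 0.121, adjusted p = 0.0563), and was called lower in 9 of 20 alternative settings, DESeq2 and limma voom among them (adjusted p = 0.00352 and 0.0244). Of all genes tested, 2.05% were higher and 3.41% lower. Mvd passed in all 20 alternative settings, with adjusted p of at most 0.0387, and Msmo1 lost its call without IFNa replicate 1 or A20 KO replicate 2 or 3 (adjusted p = 0.0632, 0.0818 and 0.0547). The estimate was above 0 for 17 of 18 enzymes, at a median of 0.64 against 0.02 over all genes. Every A20 KO library lay above every IFNa library in 9 of 18 enzymes, as in 12.3% of all genes tested, and below in none, as again in 12.3%. The 3 comparisons share libraries, so these counts are not independent of those against WT.

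**Figure D2:**
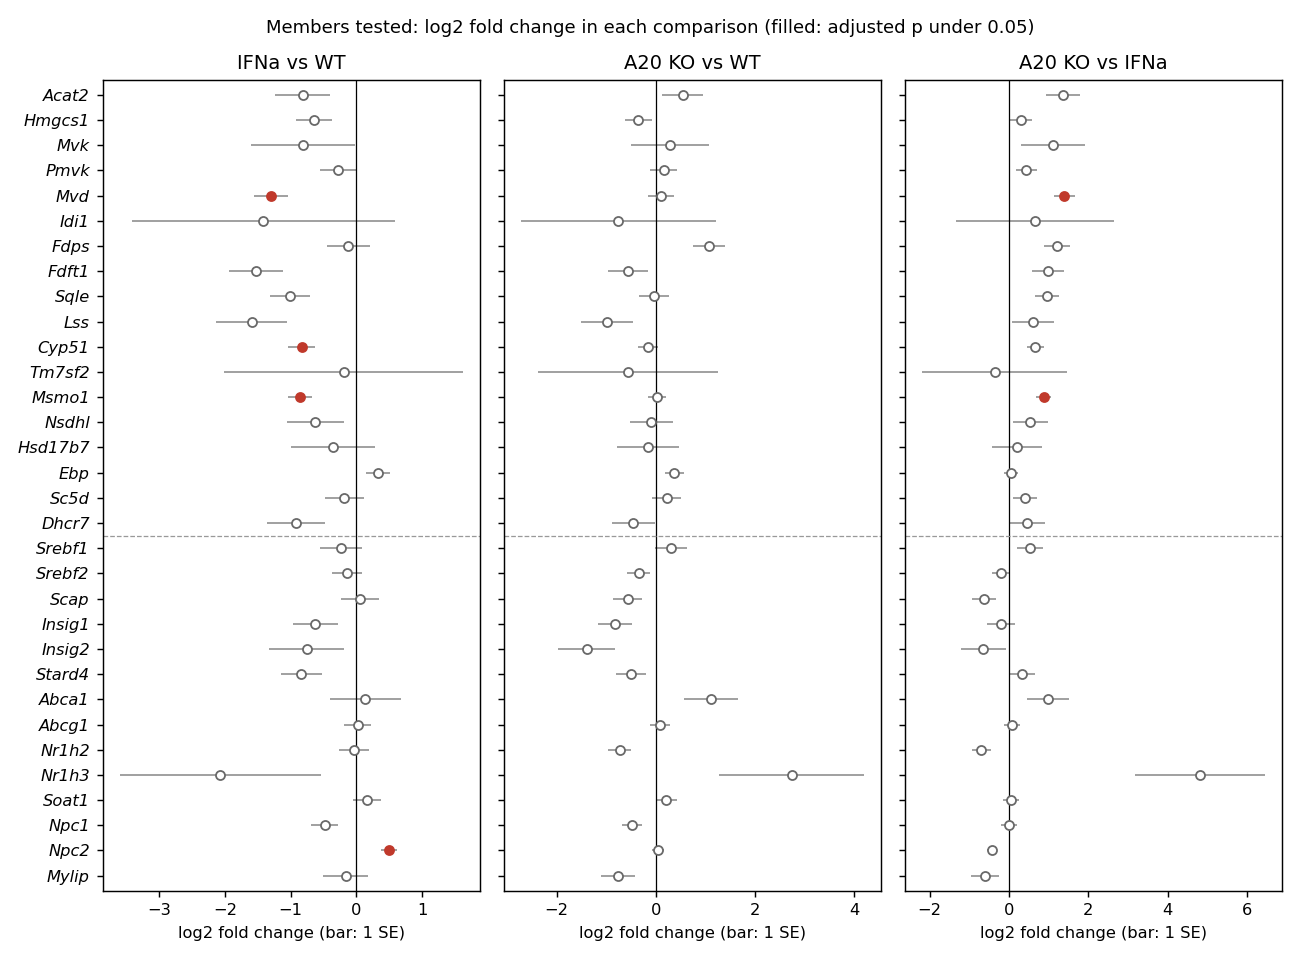
Log2 fold change of the 32 members tested in the 3 comparisons, with bars of 1 standard error and filled points where the adjusted p was under 0.05. The dashed line parts the 18 enzymes above from the other members below. Filled points are Mvd, Cyp51, Msmo1 and Npc2 on the left and Mvd and Msmo1 on the right.

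The summed level of the 18 enzymes was 737, 664 and 664 CPM in WT, 437, 443 and 511 with IFNa, and 685, 700 and 689 in A20 KO. Without Hmgcs1, the enzyme of highest level, it was 569, 444 and 483 CPM in WT, 353, 329 and 346 with IFNa, and 473, 577 and 579 in A20 KO. On both sums the IFNa libraries were lowest and the other groups overlapped. Markers of dividing cells had another order, with a summed level of 1114 to 1288 CPM in WT, 1609 to 1962 CPM in the IFNa libraries and 2399 to 2856 CPM in A20 KO. Of 16 proliferation markers, 5 rose and none fell with IFNa and 12 rose and none fell in A20 KO against WT. Over all genes tested, 2.4% rose and 0.702% fell with IFNa, and 5.77% rose and 4.91% fell in A20 KO. Plasmacytoid dendritic cell markers, 10 genes with Irf7 among them, had sums of 704 to 821 CPM in WT, 1389 to 1607 CPM for IFNa and 1029 to 1295 CPM for A20 KO. Irf7 alone held 423 to 536 CPM of the IFNa sums and 85 to 132 CPM of the A20 KO sums. The order of IFNa above A20 KO thus rested on Irf7, while both groups stayed above WT without it. Of the 9 plasmacytoid markers tested, 3 rose and none fell with IFNa, and 7 rose and 1 fell in A20 KO against WT. Sums of 14 markers of mature dendritic cells were 269 to 363, 973 to 1021 and 1815 to 2195 CPM in the same order, and sums of 12 neutrophil markers were 98.9 to 126, 330 to 390 and 319 to 458 CPM. The neutrophil markers were split, and 3 rose and none fell with IFNa, while 5 rose and 2 fell in A20 KO against WT. In A20 KO against IFNa, 3 of them were higher and 3 lower, where 2.05% and 3.41% of all genes tested were. A list of 10 markers of type 1 conventional dendritic cells was also summed. The sums were 1587 to 1940 CPM in WT, 1304 to 1513 CPM for IFNa and 727 to 939 CPM for A20 KO. Of these markers, 2 fell and none rose with IFNa, and 5 fell and none rose in A20 KO against WT. The single transcript Gm26917 took 5.21 to 11.4% of all counts in WT, 12.2 to 17.3% in the IFNa libraries and 12.3 to 13.8% in A20 KO. The part of all these markers, of Gm26917 and of the stromal, cDC2 and macrophage markers in the enzyme levels was not tested beyond the stromal settings given. In bulk libraries, fewer cells of a type and less RNA per cell cannot be told apart. Without the 3 libraries of highest stromal markers, the log2 fold change with IFNa was -1.31 for Mvd, -0.90 for Msmo1 and -0.97 for Cyp51, and none passed (adjusted p = 0.0574, 0.0748 and 0.0639), with 2 libraries left per group.

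**Figure D3:**
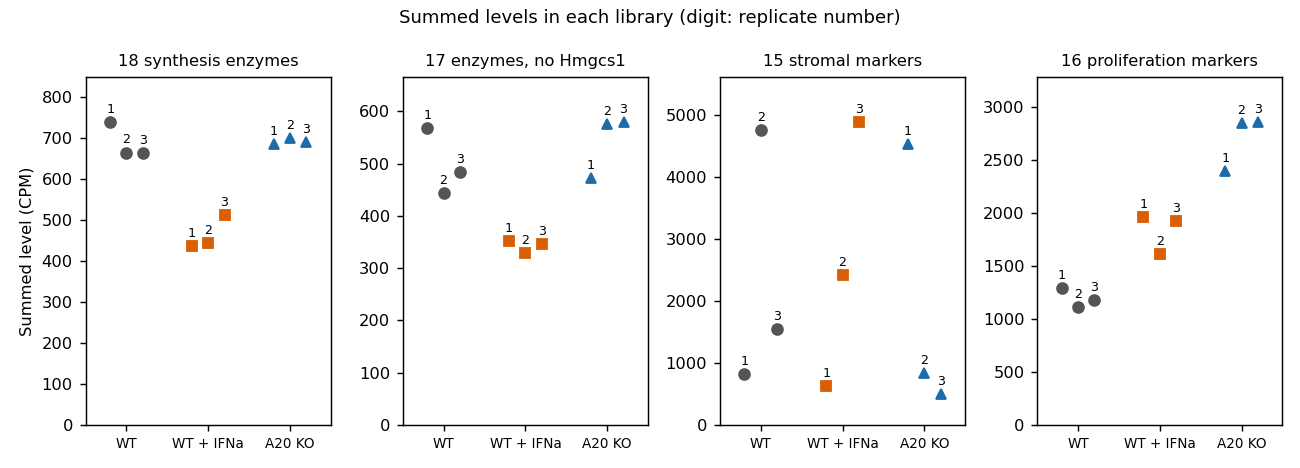
Summed CPM per library (digits are replicate numbers) of the 18 enzymes, of the 17 without Hmgcs1, of 15 stromal markers and of 16 proliferation markers. The IFNa libraries are lowest on both enzyme sums, stromal markers are high in 1 library of each group, and proliferation markers are lowest in WT.

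The genes that control the enzymes through SREBP did not pass the test in any comparison. Srebf2, the sterol factor, was at 301, 271 and 267 CPM in WT, 275, 271 and 212 with IFNa, and 135, 273 and 251 in A20 KO. The groups overlapped, and the lowest value was in A20 KO replicate 1, a library of high stromal markers. Srebf1, whose protein favours fatty acid genes, was at 24.6 to 39.2, 19 to 38.4 and 30.4 to 44 CPM, and Scap at 28.5 to 57.9, 31.9 to 51.2 and 25.3 to 32.1 CPM in the same order. Both overlapped between all groups.

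Insig1, itself a known SREBP target, was at 34.5, 19.8 and 28.5 CPM in WT, 17.5, 22.7 and 13.4 with IFNa, and 15.1, 19.2 and 12.3 in A20 KO. Every A20 KO library lay below the WT range, and only replicate 2 lay close to it (log2 fold change -0.83, SE 0.347, edgeR adjusted p = 0.17). The IFNa libraries overlapped with both other groups (against WT -0.63, SE 0.345, edgeR adjusted p = 0.506). Insig2 was at 8.96 to 22.1, 7.08 to 11 and 2.27 to 9.33 CPM (A20 KO against WT -1.40, SE 0.583, adjusted p = 0.17). For Insig1 and Insig2 the A20 KO estimate thus lay further below WT than the IFNa estimate, the reverse of the order for the enzymes, but neither gene differed between A20 KO and IFNa by the test (adjusted p = 0.893 and 0.72).

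Of the receptors and efflux genes, none passed in any comparison. Nr1h3 was at 0.0981, 5.75 and 0 CPM in WT, 0, 0.348 and 1.04 with IFNa, and 11, 19.2 and 8.53 in A20 KO. Every A20 KO library lay above all 6 others, and WT replicate 2, a library of high stromal markers, held most of the 44 counts in WT. The log2 fold change was 2.74 against WT (SE 1.46, adjusted p = 0.304) and 4.82 against IFNa (SE 1.64, adjusted p = 0.129). Without WT replicate 2 it passed against WT, at 7.66 (edgeR adjusted p = 0.0073), and against IFNa, at 4.82 (edgeR adjusted p = 0.0194), and it passed against both groups with the stromal covariate (adjusted p = 0.0271 and 0.00756). A fitted fold against so few counts depends on the model and is no bound.

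Nr1h2, the other receptor, was at 73.1, 68.3 and 77.2 CPM in WT, 67.9, 91.3 and 53.8 with IFNa, and 39.2, 55 and 37.4 in A20 KO. Its A20 KO libraries lay below WT, and the difference did not pass (log2 fold change -0.73, SE 0.236, adjusted p = 0.0693). By the test it passed with DESeq2, with no filter on low counts and with the stromal covariate, and in no fit that left out 1 library. Abca1 was at 29.1, 6.42 and 6.2 CPM in WT, 19.4, 13.9 and 12.6 with IFNa, and 36.8, 33.1 and 21 in A20 KO. WT replicate 1 stood far above the other WT libraries. Without it the A20 KO difference rose from 1.12 (SE 0.541, adjusted p = 0.25) to 2.28 (edgeR adjusted p = 0.00534). That was the only 1 of 20 alternative settings in which Abca1 passed against WT, and without the 3 libraries of highest stromal markers the difference was 0.62 (adjusted p = 0.642).

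Abcg1 hardly differed between groups, at 78.1 to 103, 83.8 to 103 and 77.3 to 121 CPM, with log2 fold changes of 0.02 (SE 0.2) for IFNa and 0.09 (SE 0.2) for A20 KO against WT. Mylip was at 21.5 to 43.8, 22 to 40.4 and 16 to 25.2 CPM (A20 KO against WT -0.77, SE 0.344, adjusted p = 0.206). Ch25h was the member left untested. It held no count in the WT libraries, 1 count over the IFNa libraries and 8 in A20 KO, 7 of them in replicate 2, so that no rise with IFNa was detectable at this depth.

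Among the transport and storage genes, Npc2, the lysosomal protein that passes cholesterol to Npc1, rose with IFNa. It was at 845, 813 and 873 CPM in WT, 1220, 1222 and 1109 with IFNa, and 760, 940 and 926 in A20 KO, so that all IFNa libraries lay above the rest. The rise was 0.49 (SE 0.121, edgeR adjusted p = 0.0479). It passed in 8 of 20 alternative settings and was lost without any single WT or IFNa library, without A20 KO replicate 2 or 3 and under scaling by library size alone (log2 fold change 0.37, adjusted p = 0.11). Npc1, the membrane protein that exports lysosomal cholesterol, was at 103 to 160, 85.1 to 104 and 77.4 to 113 CPM, with estimates below WT of -0.48 in both other groups (adjusted p = 0.329 and 0.182). Stard4, a sterol carrier known as an SREBP target, was at 36.1 to 56.6 CPM in WT, 17.4 to 32.6 in the IFNa libraries and 27.1 to 41.2 in A20 KO, with no overlap between WT and IFNa (log2 fold change -0.84, SE 0.309, adjusted p = 0.235). Soat1, which esterifies cholesterol for storage, was at 75.2 to 139, 122 to 132 and 117 to 139 CPM.

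**Figure D4:**
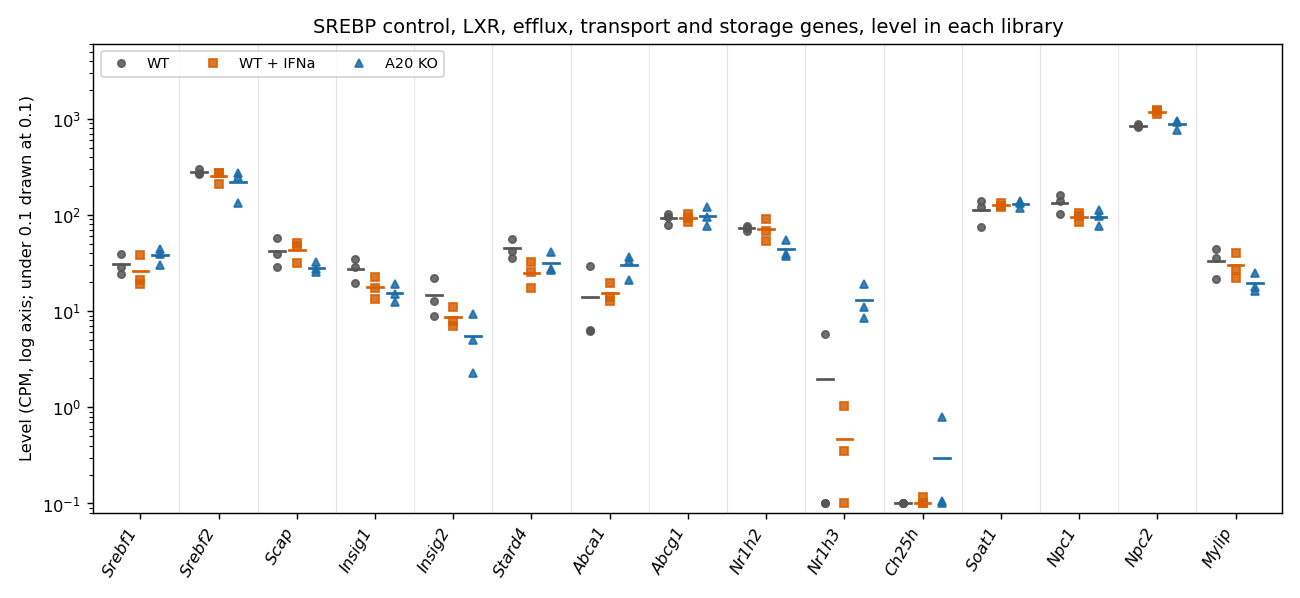
Level of the 15 control, receptor, efflux, transport and storage genes in CPM (log axis, values under 0.1 drawn at 0.1), 1 point per library and a bar at each group's mean of 3. Npc2 has its IFNa points above the rest, and Nr1h3 has A20 KO points at 8.53 to 19.2 CPM above all WT and IFNa points.

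Related lipid genes were counted from lists drawn up by function with earlier results of these data known, so their counts are descriptions. Over all genes tested, 2.4% rose and 0.702% fell with IFNa, and 5.77% rose and 4.91% fell in A20 KO against WT. In A20 KO against IFNa, 2.05% were higher and 3.41% lower. Among 19 tested SREBP fatty acid targets, Scd2, a stearoyl-CoA desaturase, was the only call with IFNa and against IFNa. Its level was 101, 87.3 and 118 CPM in WT, 27.9, 41 and 48.9 with IFNa, and 131, 181 and 179 in A20 KO. The 3 groups did not overlap. Scd2 fell with IFNa by 1.38 (SE 0.231, edgeR adjusted p = 0.00388) and was higher in A20 KO than with IFNa by 2.06 (SE 0.235, edgeR adjusted p = 0.000171). Its difference between A20 KO and WT was 0.68 (SE 0.225, edgeR adjusted p = 0.0786). That difference passed in 6 of 20 alternative settings, DESeq2 and limma voom among them (adjusted p = 0.0292 and 0.0378). Against WT, 1 of the 19 rose and 1 fell in A20 KO. Fabp5, a fatty acid binding protein gene, rose (6.82 ± 5.12 to 76.2 ± 24.5 CPM, SD, n = 3). Against IFNa, Fabp5 was higher in A20 KO without overlap but missed the threshold (log2 fold change 2.06, SE 0.619, edgeR adjusted p = 0.0794). It passed there in 6 of 20 alternative settings. Fads1, a fatty acid desaturase gene, fell (75.5 ± 9.85 to 47 ± 2.88 CPM, SD, n = 3, edgeR adjusted p = 0.0356), a call that was lost without any single library other than WT replicate 2 and held in 9 of 20 alternative settings (largest adjusted p 0.156). The median log2 fold change of these 19 genes was -0.19 with IFNa and 0.08 in A20 KO against WT.

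None of 12 genes of SREBP processing and none of 14 genes of the isoprenoid branch passed in any comparison. At an unadjusted p under 0.05 there were 1, 3 and 3 processing genes and 1, 3 and 1 isoprenoid genes in IFNa against WT, A20 KO against WT and A20 KO against IFNa. Of all 13251 genes tested, 1685, 2956 and 2196 passed at that level in the same order. DESeq2 called 0, 1 and 1 processing genes and no isoprenoid gene, and limma voom called none of either list. Among 10 further genes of sterol synthesis steps, only Cyb5a, the cytochrome b5 that passes electrons to sterol and fatty acid enzymes, passed. It fell from 121 ± 10.4 to 75 ± 7.17 CPM with IFNa (edgeR adjusted p = 0.0457) and to 56.2 ± 3.08 CPM in A20 KO (edgeR adjusted p = 0.000865), each mean ± SD over 3 libraries. The IFNa call on Cyb5a was lost without any single library (largest adjusted p 0.196).

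Of 10 tested genes known as LXR targets outside the 33 genes, 4 rose and none fell with IFNa, and 5 rose and 1 fell in A20 KO against WT. The shares over all genes tested were 2.4% and 0.702% with IFNa, and 5.77% and 4.91% in A20 KO. Apoe, the lipid carrier apolipoprotein E, was at 40.6, 37.3 and 56.5 CPM in WT, 185, 173 and 240 with IFNa, and 221, 180 and 222 in A20 KO, with both other groups clear of WT. It rose by 2.15 with IFNa and 2.21 in A20 KO (SE 0.206 and 0.207, edgeR adjusted p = 3.11e-05 and 1.55e-05). Lpl, the lipoprotein lipase gene, was at 22.1 to 28.2, 63.5 to 77.1 and 176 to 243 CPM in WT, IFNa and A20 KO. Lpl rose by 1.4 with IFNa and 2.98 in A20 KO (SE 0.192 and 0.201, edgeR adjusted p = 0.000807 and 1.13e-06). It was also higher in A20 KO than with IFNa, by 1.58 (SE 0.19, edgeR adjusted p = 0.000266). Each of these Lpl calls held in all 20 alternative settings. Mertk, a receptor for apoptotic cells, was at 0.203 to 0.589, 2.32 to 4.47 and 18.3 to 25 CPM, a graded order without overlap, and was higher in A20 KO than with IFNa (log2 fold change 2.81, SE 0.549, edgeR adjusted p = 0.00849). Cd5l, a macrophage-secreted protein gene, held 1 count in WT, 90 in the IFNa libraries and 112 in A20 KO, and passed in both (edgeR adjusted p = 0.0331 and 0.0118). Arl4c, a small GTPase gene, fell in A20 KO from 561 ± 117 to 304 ± 21.9 CPM (SD, n = 3, edgeR adjusted p = 0.00379). With IFNa all Arl4c values, 311 to 407 CPM, lay below the 470 to 694 CPM of WT but missed the threshold (log2 fold change -0.65, adjusted p = 0.0567), and Arl4c was called lower in 9 of 20 alternative settings, DESeq2 and limma voom among them (adjusted p = 0.00225 and 0.0326). Apoe and Mertk are also in the macrophage marker list, of whose 20 genes 6 rose and 2 fell with IFNa and 15 rose and 1 fell in A20 KO against WT. The part of macrophage-type cells or genes in these rises was not tested. With single libraries left out, the IFNa rise of Mertk was lost without WT replicate 3, IFNa replicate 1 or A20 KO replicate 1, 2 or 3, and its difference between A20 KO and IFNa without A20 KO replicate 3. The call on Cd5l was lost with IFNa without WT replicate 2 or 3, any IFNa library or A20 KO replicate 2 or 3, and in A20 KO without A20 KO replicate 3. Pltp, a phospholipid transfer protein gene named here after its values were seen, is another of the 5 that rose in A20 KO (edgeR adjusted p = 0.0347), and its call was lost without WT replicate 1 or any single A20 KO library (adjusted p = 0.0698, 0.0696, 0.111 and 0.0731).

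Among 10 tested LXR and RXR partners, Rxra, the retinoid X receptor that pairs with LXR, fell in A20 KO against WT from 20.6 ± 8.18 to 5.45 ± 1.01 CPM (SD, n = 3, edgeR adjusted p = 0.0124). It was the only call of that list, and it was lost without WT replicate 2 or A20 KO replicate 2 (adjusted p = 0.0649 and 0.0653). Of 12 genes of lipoprotein and lipid uptake, 1 rose with IFNa and 2 rose in A20 KO, as did 2.4% and 5.77% of all genes tested. Lrp8, a lipoprotein receptor, was at 24 to 33.9 CPM in WT, 96.4 to 104 in the IFNa libraries and 87.3 to 128 in A20 KO, and rose by 1.86 and 1.97 (edgeR adjusted p = 0.000146 and 4.71e-05). Msr1, a scavenger receptor of macrophages, was at 1.57 to 4.28, 4.03 to 9.97 and 27.3 to 34.5 CPM and rose in A20 KO against WT (log2 fold change 3.23, edgeR adjusted p = 0.00107) and against IFNa (2.27, edgeR adjusted p = 0.0146). The call against IFNa was lost without IFNa replicate 1 or 3 or A20 KO replicate 1 or 3.

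Of 21 tested genes of sterol storage and transport, none passed with IFNa and 3 fell in A20 KO against WT. Over all genes tested, 4.91% fell in A20 KO, and 2.4% rose and 0.702% fell with IFNa. At an unadjusted p under 0.05, 1 of the 21 passed with IFNa, as did 1685 of all 13251 genes, and DESeq2 and limma voom called none of the 21. Cyp27a1, the sterol hydroxylase that makes 27-hydroxycholesterol, was at 97.2, 92 and 127 CPM in WT, 69.7, 81.1 and 77.1 with IFNa, and 22.3, 25.9 and 45.1 in A20 KO, a descending order without overlap in which the step from WT to IFNa did not pass (adjusted p = 0.492). It fell in A20 KO by 1.76 against WT (SE 0.263, edgeR adjusted p = 0.000691) and by 1.29 against IFNa (SE 0.26, edgeR adjusted p = 0.0105). Plin2, a lipid droplet coat protein gene, fell from 82.7 ± 27.3 to 31.4 ± 5.09 CPM (SD, n = 3, edgeR adjusted p = 0.00351), and Osbpl9, an oxysterol-binding protein family gene, fell by 0.89 (SE 0.229, edgeR adjusted p = 0.0241). Against IFNa, Cyp27a1, Plin2 and the endosomal sterol carrier gene Stard3 were lower in A20 KO, Stard3 by a log2 fold change of -1.03 (SE 0.241, edgeR adjusted p = 0.0235). The call on Osbpl9 was lost without WT replicate 1 or 3, and without A20 KO replicate 2 or 3, and those against IFNa for Cyp27a1 without A20 KO replicate 2, for Plin2 without IFNa replicate 2 or 3 or A20 KO replicate 2 or 3, and for Stard3 without IFNa replicate 1 or 2 or A20 KO replicate 1 or 3. Under scaling by library size alone Stard3 also missed the threshold (adjusted p = 0.051).

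**Figure D5:**
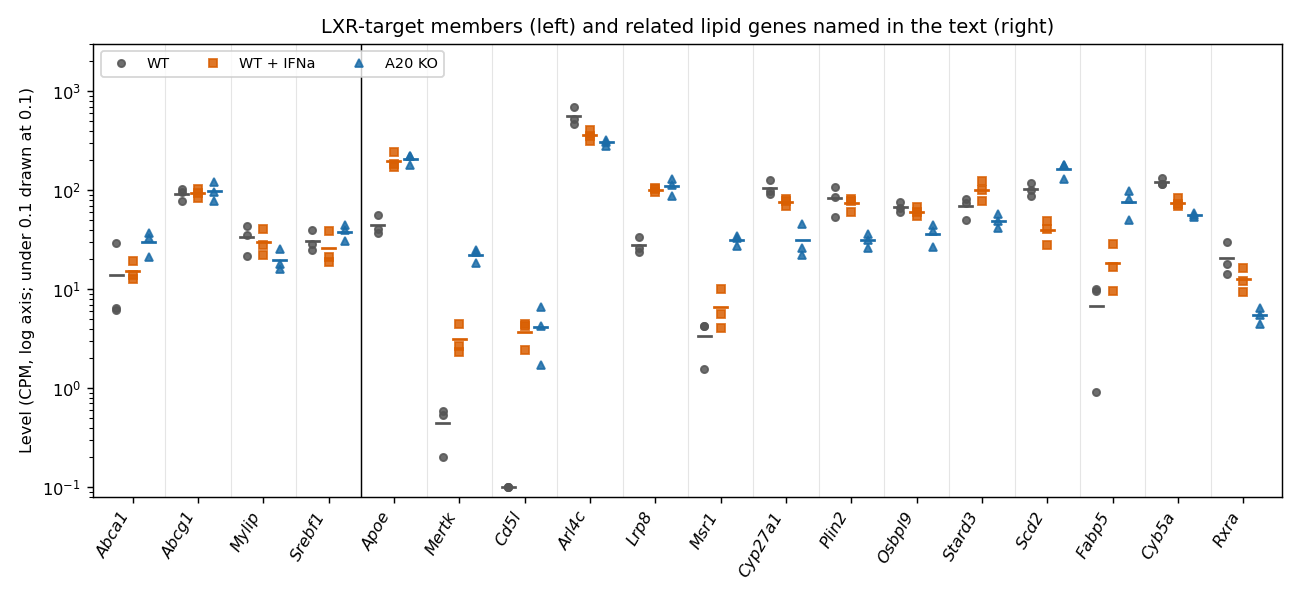
Level in CPM (log axis, values under 0.1 drawn at 0.1) of 4 members known as LXR targets, left of the line, and of related lipid genes, right of it, 1 point per library and a bar at each group's mean of 3. Apoe, Mertk and Lrp8 have IFNa and A20 KO points above all WT points, and Cyp27a1 has its A20 KO points below all others.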

How the data were processed

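The deposited values are raw counts per gene symbol from 3' tag libraries, 1 file per library, not normalized by the authors. The submitters' processing notes name build GRCm39, featureCounts 2.0.6, STAR 2.7.10b, Bowtie2 and fastp 0.23.1. The tools' roles, annotation and strand setting were not given in the sources used here. Groups and replicate numbers came from the titles. Genes were kept with filterByExpr (minimum count 10, total 15), which left 13251 genes with 99.8% of the counts. Differences were tested with edgeR 4.0.16 (R 4.3.3), TMM scaling and the quasi-likelihood test in 1 fit of 9 libraries (6 residual degrees of freedom), with Benjamini-Hochberg adjustment across the genes that passed the filter and calls at an adjusted p under 0.05. Standard errors came from the F statistic. The code was tested on simulated data. Library pairs within a group differed beyond sampling noise (chi-square per degree of freedom at least 14.4). DESeq2 1.42.0 and limma 3.58.1 were among the 20 alternatives. Deviations from the group mean correlated at -0.37 to 0.24 between same-numbered libraries. These values cannot show that pairing is absent. The libraries of highest stromal markers, which carry different numbers, correlated with each other at 0.26 to 0.36 and could mask it. Members were all described, and of each related list up to 4 genes per comparison past the threshold were eligible to be named, not all of which are printed. The genes and lists were chosen with earlier results of these data known.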

Additional observations from a re-analysis of the deposited data

How the results depend on the processing

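Under the 20 alternatives there were 1910 values of single members. None that passed the test changed sign, 56 gained a call and 78 that were never called changed sign. A call could be lost only for the 4 members called with IFNa and the 2 called in A20 KO against IFNa, and 39 such values lost it. With IFNa the call held in 16 of 20 alternatives for Mvd, 11 for Msmo1, 9 for Cyp51 and 8 for Npc2. In A20 KO against IFNa it held in all 20 for Mvd and in 17 for Msmo1. The count of all genes called was 411 with IFNa, 1416 in A20 KO against WT and 723 in A20 KO against IFNa. DESeq2 gave 700 and 1143 for the first and last, and the stromal covariate 732 and 1255. Leaving out 1 library gave 283 to 420, 919 to 1372 and 400 to 875. Scaling by library size alone shifted all genes, whose median became -0.15 with IFNa and 0.12 in A20 KO against IFNa. It changed the split of higher and lower calls from 318 and 93 to 286 and 184, and from 271 and 452 to 370 and 379. The cause of these changes was not tested.

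The 4 members called with IFNa became 1 with only the 2 groups compared, 1 with the replicate number as a block, 6 with the stromal covariate, 1 without the 3 libraries of highest stromal markers, and 0 to 3 with 1 library left out. The count of 0 in A20 KO against WT became 1 with RLE, upper quartile or library size scaling and with the filter of 5 CPM in 3 libraries, 2 with no filter, DESeq2 or limma voom, 4 with the stromal covariate, 1 without the 3 stromal libraries, and 0 to 2 with 1 library left out. The count of 2 in A20 KO against IFNa became 4 with RLE, upper quartile or library size scaling, with no filter, with the 5 CPM filter and with limma voom, 7 with DESeq2, 5 with only the 2 groups, the stromal covariate or without the 3 stromal libraries, and 1 to 5 with 1 library left out. With the replicate block it was 2 and in A20 KO against WT 0. The median log2 fold change over members ran, with 1 library left out, from -0.69 to -0.31 with IFNa (main value -0.56), from -0.22 to 0.0602 in A20 KO against WT (-0.12, highest without WT replicate 1) and from 0.30 to 0.50 in A20 KO against IFNa (0.42). With 3 libraries a group, of 6900598 to 10552756 counts each, members at a few CPM such as Idi1, Tm7sf2 and Mvk had standard errors of 0.787 to 2.01 on the log2 scale.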
